A study of Mus musculus with 16 samples.

Results

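The genes described here are 9 mouse chemokine ligand genes, Ccl1, Ccl3, Ccl4, Ccl5, Ccl17, Ccl22, Cxcl2, Cxcl3 and Xcl1, out of 51912 genes in a table of raw counts from lung group 2 innate lymphoid cells (ILC2s). The 9 were chosen by name, with their counts in these libraries already known. Which contrast entered that choice is not recorded, so every fold change and call below is a description of these genes and supports nothing beyond it. ILC2s are tissue lymphocytes without antigen receptors that answer alarm cytokines by making type 2 cytokines. The study asked whether PAC1, a nuclear phosphatase encoded by Dusp2 that dephosphorylates MAP kinases, changes how these cells answer IL-33 and the neuropeptides CGRP and NMU.

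WT and germline Pac1-/- mice were on a C57BL/6J background, matched for sex and age and 6 to 8 weeks old. Lung cells were depleted of most T, B, myeloid and NK cells with an enrichment kit, and the ILC2s were sorted to a purity above 90%. The paper's culture method expanded sorted ILC2s with IL-2 and IL-7 and removed both before the stimuli. Its RNA sequencing method does not restate that step. All cells received IL-7 at 100 ng/mL for 4 h, after which about 500 ILC2s per library were sorted into lysis buffer. Of the 4 treatments, the first was IL-7 alone, the second added IL-33 at 100 ng/mL, and the third and the fourth added to IL-7 and IL-33 either CGRP or NMU at 500 ng/mL. Each of the 8 groups had 2 libraries, made from about 500 cells each, so the table has 16 libraries. The sources used here do not say whether the 2 libraries of a group came from separate animals or cultures, and the p-values then measure only the spread between libraries, which may be technical. The loss is germline, so cells other than ILC2s lacked PAC1 as well.

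Chemokines are small secreted proteins that guide leukocytes through G protein-coupled receptors. CCL3, CCL4 and CCL5 attract T cells and monocytes. CCL17 and CCL22 signal through CCR4, and CCL1 through CCR8, receptors found on type 2 lymphocytes. CXCL2 and CXCL3 attract neutrophils through CXCR2, and XCL1 attracts cross-presenting dendritic cells through XCR1. Many chemokine genes are immediate targets of NF-kB, a transcription factor that IL-33 signaling activates.

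The promoters of Ccl1, Cxcl2 and Cxcl3 are shown because these 3 genes had the highest mean CPM of the 9 before any division by length. Each sequence is the 250 bases before the RefSeq transcription start on assembly GRCm38.p6, written along the gene's strand. The Ccl1 window lies at chr11:82179813-82180062 on the minus strand, Cxcl2 at chr5:90903649-90903898 on the plus strand and Cxcl3 at chr5:90785851-90786100 on the plus strand. The capitals mark a match to the NF-kB consensus, found on both strands at overlapping positions in each of the 3.
Ccl1: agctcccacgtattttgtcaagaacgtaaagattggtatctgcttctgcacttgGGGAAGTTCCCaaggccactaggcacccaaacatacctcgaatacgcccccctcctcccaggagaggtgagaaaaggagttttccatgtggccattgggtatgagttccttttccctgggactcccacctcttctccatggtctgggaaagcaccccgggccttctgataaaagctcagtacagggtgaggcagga
Cxcl2: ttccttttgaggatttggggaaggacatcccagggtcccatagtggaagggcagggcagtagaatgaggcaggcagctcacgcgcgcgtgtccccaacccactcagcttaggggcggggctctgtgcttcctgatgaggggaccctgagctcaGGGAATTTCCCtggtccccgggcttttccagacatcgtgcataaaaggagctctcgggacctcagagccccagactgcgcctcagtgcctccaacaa
Cxcl3: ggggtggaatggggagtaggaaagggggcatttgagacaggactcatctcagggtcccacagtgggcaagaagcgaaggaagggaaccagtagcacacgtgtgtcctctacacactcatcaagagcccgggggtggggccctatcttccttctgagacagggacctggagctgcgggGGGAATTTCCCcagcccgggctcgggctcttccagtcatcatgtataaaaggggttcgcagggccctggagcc
The match lay 196 to 186 bases before the start in Ccl1, 97 to 87 in Cxcl2 and 73 to 63 in Cxcl3. Of 32817 RefSeq promoters, 7.25% held such a match in a window of the same length. The AP-1 motif TGANTCA (6.75% of promoters), the CRE half-site TGACG (17.8%) and the STAT motif, TTC and GAA with 3 bases between them (7.02%), were searched on both strands too and had no match in these 3 windows. RefSeq promoters were on hand for 7 of the 9 genes. Ccl3, Ccl22 and Xcl1 held none of the 4 motifs, and Ccl17 held 1 STAT match. A match describes letters only. On GRCm38 (mm10) the GENCODE M21 genes span chr11:83647844-83649355 for Ccl3 (minus strand), chr11:83662584-83664683 for Ccl4 (plus), chr11:83525778-83530518 for Ccl5 (minus), chr5:90903871-90905938 for Cxcl2 (plus), chr5:90786103-90789600 for Cxcl3 (plus) and chr1:164931644-164935527 for Xcl1 (minus). Ccl1 is annotated over chr11:82176657-82305690 (minus), a span far longer than its coding transcript, so its promoter window lies inside it.

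Total counts per library ran from 6764992 to 15963357 with a median of 11071278. Levels are given as CPM, a gene's counts relative to the total of its library, scaled with TMM factors, a normalization that corrects for differences in library composition. The detection floor was set at 3 counts, which equals 0.171 to 0.462 CPM depending on the library and covers counting error only, since no molecular identifiers were described. The cells carried all 11 genes of an ILC2 marker list, including Gata3, Il1rl1 and Rora, at a summed 8824 to 13090 CPM. Dusp2 itself was at 0 counts in all 8 Pac1-/- libraries but also in 6 of 8 WT libraries, with 57 and 29 counts in the other WT libraries, so it checked the genotype labels only weakly. The 9 genes together took between 0.123% and 0.830% of a library's counts, with group means of 0.780% in Pac1-/- ILC2s with NMU and 0.413% in WT ILC2s with NMU. In bulk libraries, fewer cells of a type and less RNA per cell cannot be told apart.

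The name of this gene group, ligands made by ILC2s, went against the data for 2 of the 9 genes. Ccl22 had 0 counts in all 16 libraries. Ccl17 had 20 counts in 1 WT library with IL-7 and 0 in the other 15. Both genes lie on chromosome 8 and were below detection at this depth in nearly every library. The remaining 7 genes fell into a group present in every library (Ccl1, Cxcl2, Cxcl3 and Ccl5) and a group at 0 in some treatments (Ccl3, Ccl4 and Xcl1). Per kilobase of merged exon, the mean over 16 libraries was 624 CPM for Ccl1, 465 for Cxcl2, 166 for Ccl5 and 147 for Cxcl3. It was 32.0 for Ccl4, 23.2 for Ccl3 and 11.8 for Xcl1. Each neighbouring pair in that order differed by less than the SD of the higher gene over the 16 libraries. With the longest protein-coding transcript as the length, an alternative chosen after seeing the data, Cxcl3 (507) stood above Ccl5 (299) and Ccl1 reached 2419. The order also turned by treatment: per kilobase of merged exon, Ccl5 was at 483 CPM with IL-7 and 28.5 with NMU, Cxcl3 at 61.0 and 384, and with NMU Ccl3 (91.9) stood above Ccl4 (50.4).

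**Figure D1:**
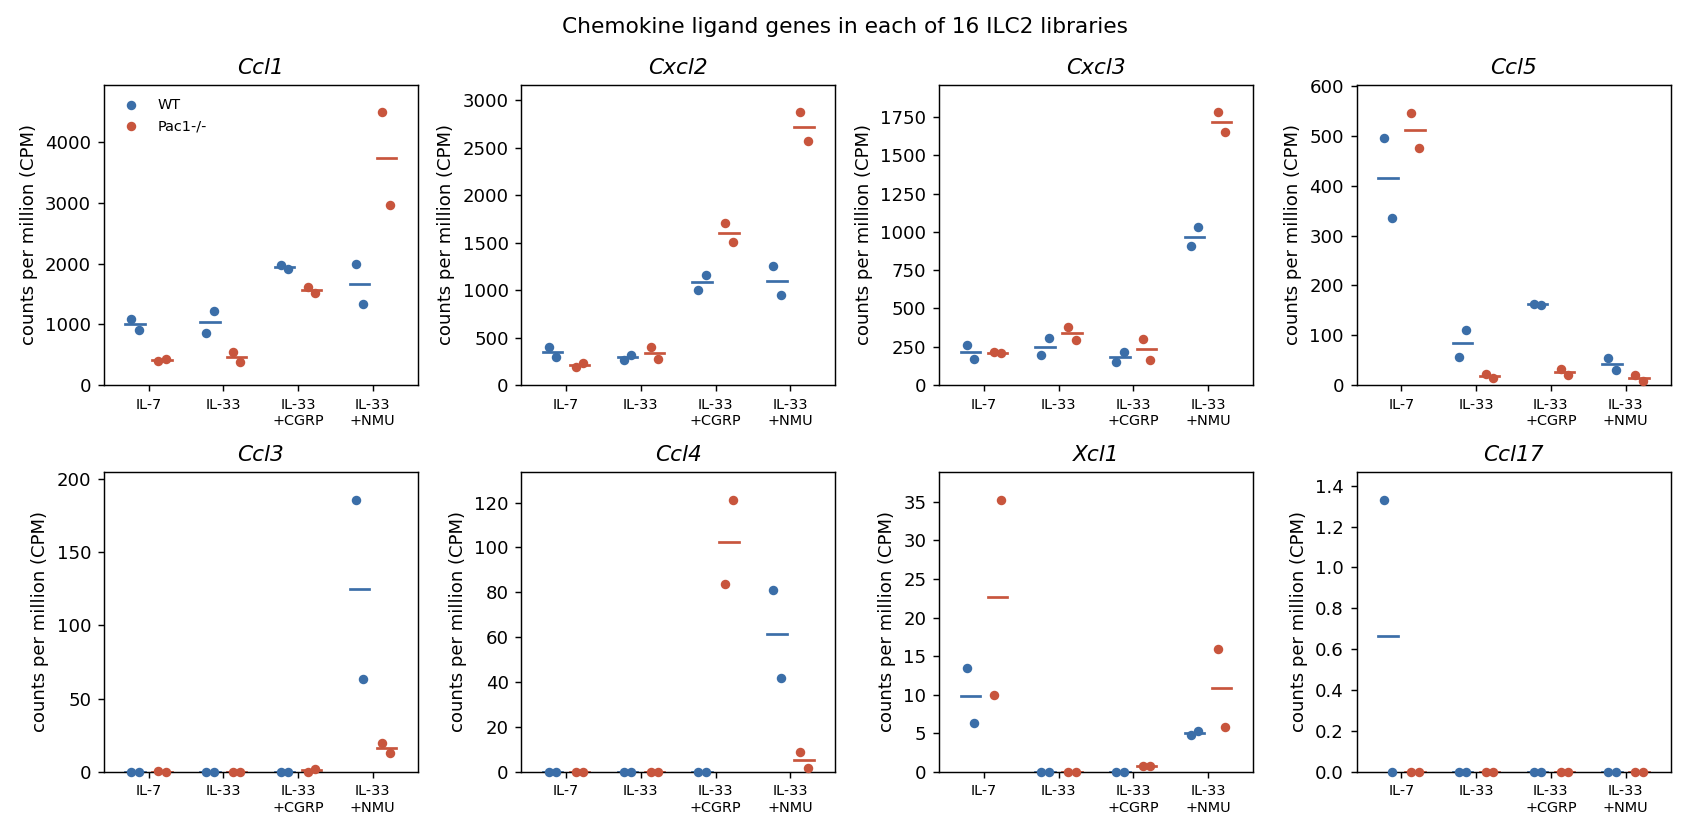
CPM of 8 chemokine ligand genes (y axis, linear, a scale per gene) in the 4 treatments (x axis) for WT (blue) and Pac1-/- (red) ILC2s. Points are libraries and bars are means of 2 libraries; Ccl22, at 0 in all 16, is not drawn. Cxcl3 is highest with NMU, Cxcl2 with CGRP and NMU, and Ccl5 with IL-7.

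Ccl1, the CCR8 ligand, was abundant in the treatment with IL-7 alone. WT libraries held 1090 and 908 CPM with IL-7 and 855 and 1225 CPM with IL-33. Pac1-/- libraries held 397 and 431 CPM with IL-7 and 552 and 378 CPM with IL-33. In both treatments the WT libraries were above the Pac1-/- libraries without overlap. With CGRP, the WT libraries held 1975 and 1914 CPM and the Pac1-/- libraries 1617 and 1515 CPM. With NMU the order turned, at 1988 and 1337 CPM in WT and 4503 and 2964 CPM in Pac1-/-. The highest Ccl1 level of the table was thus in Pac1-/- ILC2s with NMU. The receptor of CCL1 was measured in the same cells, with Ccr8 at 526 to 1390 CPM with IL-33, 1654 to 2356 CPM with CGRP and 1880 to 2898 CPM with NMU.

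Cxcl2, a neutrophil attractant, held 396 and 298 CPM in WT and 191 and 233 CPM in Pac1-/- libraries with IL-7. With IL-33 it held 267 and 315 CPM in WT and 398 and 278 CPM in Pac1-/-. These 8 libraries spanned one low range. With CGRP, it held 1003 and 1161 CPM in WT and 1705 and 1504 CPM in Pac1-/-. With NMU, it held 1251 and 945 CPM in WT and 2878 and 2569 CPM in Pac1-/-. Every library with CGRP or NMU was above every library without a neuropeptide, and within each neuropeptide the Pac1-/- libraries were above the WT libraries.

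Cxcl3, whose product acts on the same receptor, held 259 and 169 CPM in WT and 218 and 207 CPM in Pac1-/- libraries with IL-7. With IL-33 it held 193 and 305 CPM in WT and 380 and 297 CPM in Pac1-/-. With CGRP it held 149 and 219 CPM in WT and 302 and 167 CPM in Pac1-/-, inside the range of the libraries without a neuropeptide or just below it. With NMU it held 909 and 1031 CPM in WT and 1785 and 1654 CPM in Pac1-/-. All 4 NMU libraries were above all 12 others, and the Pac1-/- pair was above the WT pair. The annotated transcripts of Cxcl2 and Cxcl3 share a stretch of 116 bases at 98.3% identity, and how reads from it were counted is not given in the sources used here.

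Although Cxcl2 and Cxcl3 rose together with NMU, they parted with CGRP. The ratio of Cxcl2 to Cxcl3, each per kilobase of merged exon, was 1.86 ± 0.329 (SD, n = 4 libraries) under IL-33, 2.24 ± 0.668 under IL-7 and 2.31 ± 0.533 under NMU. With CGRP it was 11.3 ± 2.84, between 8.98 and 15.3, against 1.49 to 2.98 over the 12 other libraries. The ratio with CGRP lay above the rest in both genotypes, at 11.4 and 8.98 in WT and 9.56 and 15.3 in Pac1-/-. Its absolute size depends on the lengths used, whereas its comparison between libraries does not. No test was run on this ratio, since the genes were chosen on these libraries.

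**Figure D2:**
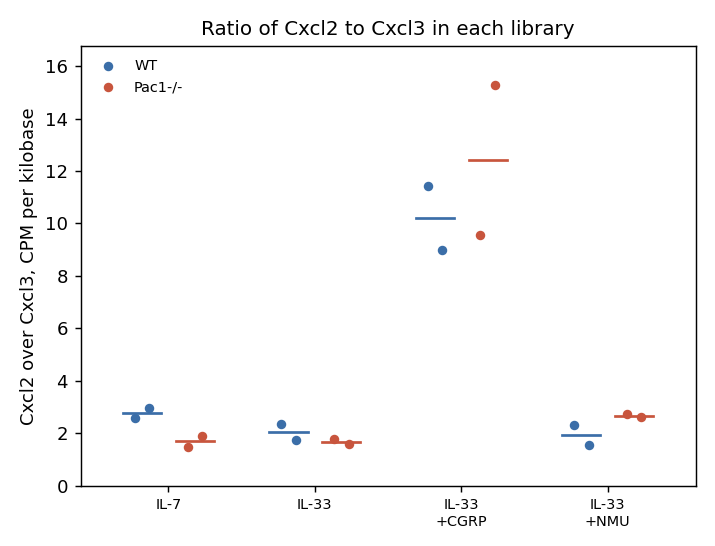
Ratio of Cxcl2 to Cxcl3 (y axis, CPM per kilobase of merged exon, linear) in each library, by treatment (x axis), WT in blue and Pac1-/- in red, with bars at the mean of 2 libraries. The 4 libraries with CGRP sit between 8.98 and 15.3, and the other 12 between 1.49 and 2.98.

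Ccl5, a T cell and monocyte attractant that cytotoxic lymphocytes make in quantity, was highest with IL-7. With IL-7 it held 497 and 336 CPM in WT and 547 and 476 CPM in Pac1-/-. With IL-33 it held 56.9 and 111 CPM in WT and 21.4 and 13.8 CPM in Pac1-/-. All IL-7 libraries were above all others, and with IL-33 the WT libraries were above the Pac1-/- libraries. With CGRP it held 163 and 161 CPM in WT and 33.1 and 19.6 CPM in Pac1-/-. With NMU it held 53.5 and 29.2 CPM in WT and 19.5 and 7.29 CPM in Pac1-/-. WT was thus above Pac1-/- without overlap in the 3 treatments with IL-33, and the ranges overlapped with IL-7 alone. Genes of T and NK cells moved with Ccl5. Gzma, the gene of a cytotoxic granule protease, had 1416 to 2710 counts in the 4 IL-7 libraries and 0 in all others except 79 in 1 Pac1-/- library with IL-33. Cd3d held 73.9 to 103 CPM with IL-7 and at most 27.5 CPM in the other 12 libraries. Over the 7 genes of an NK and ILC1 list the summed level was 122 to 239 CPM with IL-7 and at most 5.29 CPM elsewhere, with Tbx21 at 0 in all 16 libraries. Over the 6 genes of a T cell list it was 240 to 338 CPM with IL-7. With IL-33 that sum was 131 to 159 CPM in WT and 33.7 to 61.5 CPM in Pac1-/-, and with CGRP 118 to 152 CPM in WT and 85.2 to 97.0 CPM in Pac1-/-. With NMU the sums overlapped, at 99.5 to 173 CPM in WT and 66.4 to 111 CPM in Pac1-/-, with Cd8a at 0 in all 16 libraries. The part of these cells in the Ccl5 values was not tested.

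Ccl3 and Ccl4, which encode attractants of T cells and monocytes and lie 13228 bases apart on chromosome 11, were nearly absent without a neuropeptide. Ccl4 had 0 counts in all 8 libraries with IL-7 or IL-33, and Ccl3 had 0 in 7 of them and 4 counts in 1 Pac1-/- library with IL-7. With NMU, Ccl3 had 1208 and 570 counts in WT and 205 and 142 in Pac1-/-, or 186 and 63.4 CPM against 19.6 and 12.8 CPM. Both genes were therefore seen in all 4 NMU libraries, with WT above Pac1-/- and no overlap. Ccl4 had 527 and 375 counts in WT and 91 and 17 in Pac1-/- with NMU, or 81.1 and 41.7 CPM against 8.69 and 1.53 CPM. With CGRP, Ccl4 had 826 and 941 counts in Pac1-/- (83.7 and 121 CPM) and 0 and 0 in WT. Ccl3 stayed at 0 and 0 in WT and at 1 and 14 counts in Pac1-/- with CGRP, so the 2 genes parted there. Against the floor of 3 counts per library, mean Ccl3 CPM with NMU was at least 300-fold that with IL-33, where all 4 libraries were at 0. That bound was 476-fold in WT and 78.0-fold in Pac1-/-, and 136-fold over both genotypes without the first WT library with NMU. Bounds without a library were added after seeing the data. Mean Ccl4 CPM in Pac1-/- ILC2s was at least 494-fold higher with CGRP than with IL-33.

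Some markers of other cells moved with these 2 genes in some of the same libraries. The WT libraries with NMU had 728 and 251 counts of Lyz2, a lysozyme gene of macrophages and alveolar epithelium, and 1160 and 849 counts of the alveolar gene Sftpc, and no other library had more than 10 counts of Lyz2 or 2 of Sftpc. The Pac1-/- libraries with NMU had 0 and 0 counts of Lyz2 beside 205 and 142 counts of Ccl3. The summed macrophage and dendritic list was 181 to 205 CPM in WT and 158 to 177 CPM in Pac1-/- with NMU. It was 26.4 to 118 CPM in the other 12 libraries. Of its 12 genes, 9 passed 3 counts in some library, but only 4 did so in each genotype with NMU. Xcr1, the gene of the XCL1 receptor, is on that list. With NMU it alone held 146.1 and 174.3 CPM in Pac1-/- and 68.92 and 173.4 CPM in WT. Its range was 18.67 to 109.7 CPM in the other 12 libraries. The sums with NMU therefore do not stand for the list as a whole. The Pac1-/- libraries with CGRP had 833 and 582 counts of the B cell gene Ms4a1, with a summed B cell list of 270 to 282 CPM over 5 genes against at most 78.1 CPM in the other 14 libraries. The part of these cells in the Ccl3 and Ccl4 values was not tested.

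**Figure D3:**
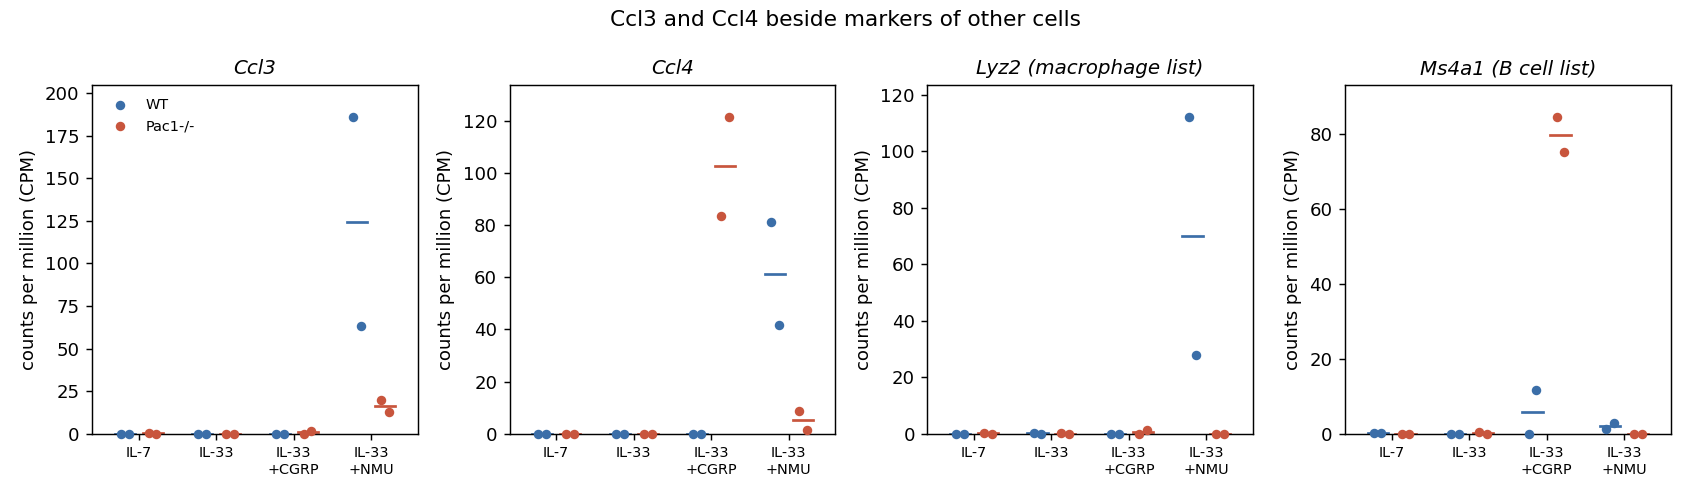
CPM (y axis, linear, a scale per panel) of Ccl3, Ccl4, Lyz2 and Ms4a1 by treatment (x axis) in WT (blue) and Pac1-/- (red) libraries, with bars at the mean of 2 libraries. Lyz2 is high in the WT libraries with NMU and Ms4a1 in the Pac1-/- libraries with CGRP, where Ccl4 is highest too, while Pac1-/- libraries with NMU have Ccl3 without Lyz2.

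Xcl1, the ligand of XCR1, was low in every treatment. With IL-7 it had 202 and 69 counts in WT and 114 and 446 in Pac1-/-, or 13.5 and 6.32 CPM against 9.93 and 35.3 CPM. With IL-33 it had 0 counts in all 4 libraries. With CGRP it had 0 and 0 in WT and 8 and 6 in Pac1-/-, and with NMU 31 and 47 in WT and 167 and 64 in Pac1-/-. Mean CPM was at least 69.3-fold higher with IL-7 than with IL-33, and at least 33.8-fold higher with NMU than with IL-33. The first bound was 42.2-fold without the second Pac1-/- library with IL-7, and the second was 22.4-fold without the first Pac1-/- library with NMU. The NK and ILC1 list given beside Ccl5, at 122 to 239 CPM with IL-7 and at most 5.29 CPM elsewhere, moved with Xcl1 in the IL-7 libraries, and its part was not tested. Xcl1 shares 98 exon bases with the antisense gene Gm20743, which had 20 and 3 counts in 2 libraries. Without a statement on strand, reads from the shared bases cannot be told apart. Xcr1, its receptor, was itself counted at 210 to 1937 counts per library.

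To compare treatments, the quasi-likelihood test of edgeR, adjusted by the Benjamini-Hochberg method, was fitted to the 8 libraries of each pair of treatments with genotype as a covariate. A gene was called at a fold change above 1.5 and an adjusted P below 0.05. With CGRP against IL-33, 3 of the 5 ligands tested were called higher and 0 lower, where 1.53% of 13160 genes were called higher and 0.213% lower. The median log2 fold change of the 5 was 1.35, against -0.09 over all genes tested. Cxcl2 had a log2 fold change of 2.10 ± 0.18 (SE; edgeR adjusted P = 0.001) and Ccl1 of 1.35 ± 0.23 (edgeR adjusted P = 0.0269). Ccl4 was called too (edgeR adjusted P = 0.0213), on the strength of the Pac1-/- libraries alone, and its call was lost with DESeq2, with a replicate block, in 1 fit of all 16 libraries and with at least 10 counts required in every library, which left 2 called. Ccl4 passed the filter on low counts only through those libraries, so the count and the median of the 5 support nothing. Cxcl3 had -0.46 ± 0.26 (edgeR adjusted P = 0.46) and Ccl5 0.79 ± 0.32 (edgeR adjusted P = 0.296).

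With NMU against IL-33, 4 of the 7 ligands tested were called higher and 0 lower, where 0.103% of 12567 genes were called higher and 0% lower. The median log2 fold change of the 7 was 2.47, against -0.07 over all genes tested. Ccl3, Ccl4 and Xcl1 passed the filter on low counts only through the NMU libraries, so this count and median support nothing, and 2 ligands (Cxcl2 and Cxcl3) were called with at least 10 counts required in every library. Cxcl2 had a log2 fold change of 2.47 ± 0.29 (edgeR adjusted P = 0.00689) and Cxcl3 of 2.16 ± 0.25 (edgeR adjusted P = 0.00485). Ccl3 (edgeR adjusted P = 0.00264) and Ccl4 (edgeR adjusted P = 0.0179) were called from 0 in all 4 IL-33 libraries. Ccl1 at 1.85 ± 0.48 (edgeR adjusted P = 0.378), Xcl1 (edgeR adjusted P = 0.12) and Ccl5 at -0.71 ± 0.42 (edgeR adjusted P = 0.782) did not pass in edgeR, whereas DESeq2 called Ccl1 and Xcl1 as well. The comparisons of CGRP and of NMU with IL-33 share the IL-33 libraries, so their values stand side by side and are not independent.

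Between the 2 neuropeptides, Cxcl3 was the ligand called, higher with NMU by a log2 fold change of 2.62 ± 0.25 (edgeR adjusted P = 0.00182). It was 1 of 7 ligands tested, where 1.44% of 12834 genes were called higher and 2.42% lower with NMU than with CGRP. Ccl3 and Xcl1 passed the filter on low counts only through the NMU libraries, so this count supports nothing. Cxcl2 differed by 0.37 ± 0.20 on the log2 scale (edgeR adjusted P = 0.365) and Ccl1 by 0.49 ± 0.32 (edgeR adjusted P = 0.475). Ccl3 (edgeR adjusted P = 0.0671), Xcl1 (edgeR adjusted P = 0.0933) and Ccl5 at -1.50 ± 0.42 (edgeR adjusted P = 0.0961) did not pass in edgeR, whereas DESeq2 called all 3.

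With IL-33 against IL-7, edgeR called 0 of 5 ligands tested, where 0% of 12980 genes were called higher and 0.0462% lower. At an unadjusted P below 0.05 the count was 2 of 5 (10.5% of all genes), and DESeq2 called 2 (3.26% of all genes), in each case Ccl5 and Xcl1, both lower with IL-33. Xcl1 passed the filter on low counts only through the IL-7 libraries, so these counts support nothing. With at least 10 counts required in every library, Ccl5 was the ligand called. Ccl5 had a log2 fold change of -3.57 ± 0.56 (edgeR adjusted P = 0.128). Ccl1 had 0.12 ± 0.19 (edgeR adjusted P = 0.938), Cxcl2 0.21 ± 0.25 (edgeR adjusted P = 0.888) and Cxcl3 0.45 ± 0.23 (edgeR adjusted P = 0.55).

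The same treatment differences were fitted within each genotype, from 2 libraries against 2, where no ligand passed the adjusted threshold. Almost no gene of the table did: with NMU against IL-33, edgeR called 2 of 10761 genes in WT and 3 of 11269 in Pac1-/-. With NMU against CGRP it called 0 of 10664 in WT and 1 of 11178 in Pac1-/-, and in the remaining comparisons 0 in either genotype. Cxcl2 with CGRP against IL-33 had log2 fold changes of 1.92 ± 0.21 in WT and 2.26 ± 0.29 in Pac1-/-. With NMU against IL-33, Cxcl2 had 1.94 ± 0.33 in WT and 3.02 ± 0.38 in Pac1-/-, and Cxcl3 had 1.98 ± 0.36 in WT and 2.35 ± 0.35 in Pac1-/-. These 2 genes were thus higher in both genotypes. Ccl1 with CGRP had 0.93 ± 0.25 in WT and 1.76 ± 0.28 in Pac1-/-, and with NMU 0.69 ± 0.36 in WT and 3.01 ± 0.42 in Pac1-/-. Ccl5 with IL-33 against IL-7 had -2.31 ± 0.41 in WT and -4.84 ± 0.37 in Pac1-/-. Whether the genotypes differed in these responses was tested with the interaction terms given with the genotype comparisons, which did not settle it.

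**Figure D4:**
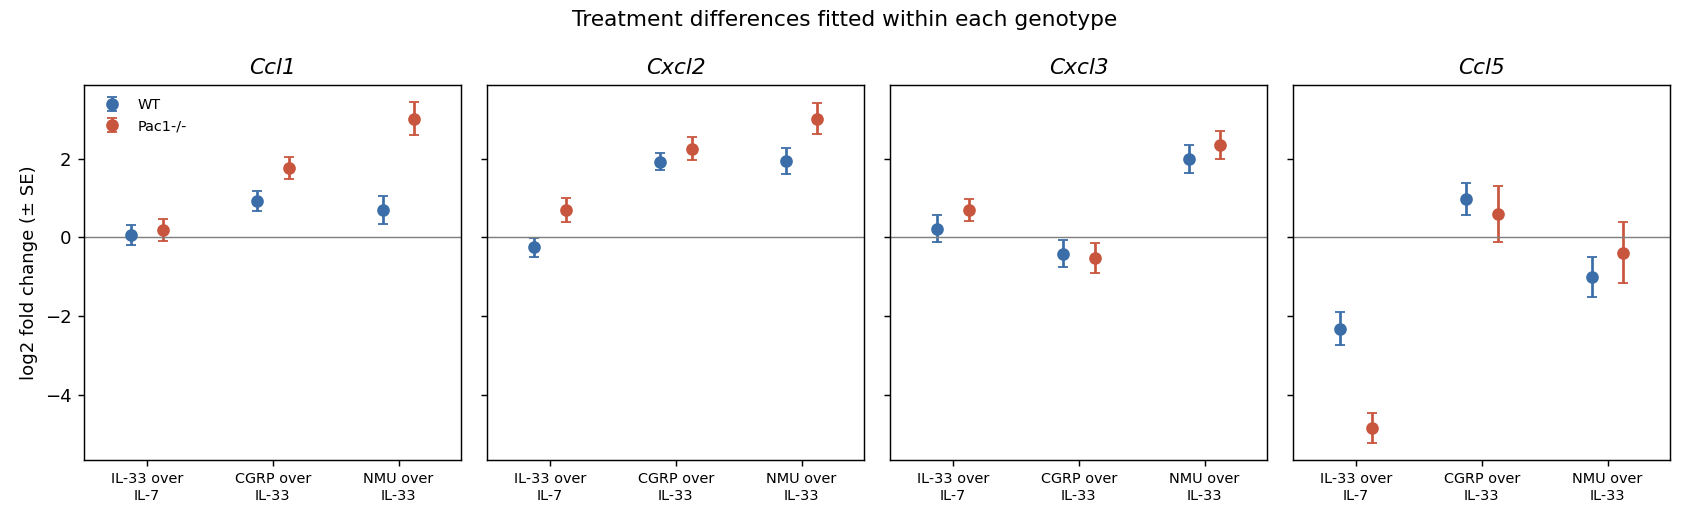
Log2 fold change (y axis, ± SE) of Ccl1, Cxcl2, Cxcl3 and Ccl5 for 3 treatment differences (x axis), fitted in WT (blue) and in Pac1-/- (red) libraries alone, 2 libraries against 2. Cxcl2 is above 0 with CGRP and with NMU in both genotypes, and Ccl1 with NMU is at 0.69 in WT and 3.01 in Pac1-/-.

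To compare the genotypes, edgeR was fitted to the 4 libraries of each treatment. It called 0 of the 9 ligands in every treatment. With IL-7, 2 of 5 tested had an unadjusted P below 0.05 and DESeq2 called 1, against 0.00916% of all genes called by edgeR, 5.74% at the unadjusted P and 0.715% by DESeq2. With IL-33, the counts were 2 of 4 tested and 1 by DESeq2, against 0.00874%, 5.04% and 0.568%. With CGRP, they were 3 of 5 and 2 by DESeq2, against 0%, 7.53% and 1.86%. Ccl4 was in both of these counts, was at 0 in WT, and passed the filter on low counts only through the Pac1-/- libraries. The counts with CGRP therefore support nothing. With NMU, the counts were 6 of 7 and 3 by DESeq2, against 0.0282%, 5.04% and 0.621%. Over all 16 libraries with treatment as a covariate, edgeR called 0 of 7 tested, 3 had an unadjusted P below 0.05 and DESeq2 called 1, against 0.0801%, 6.15% and 0.514%. Ccl3, Ccl4 and Xcl1, at 0 in every IL-33 library, entered the 7 only through treatments where they were high, and Xcl1 was among the 3. The counts over all treatments therefore support nothing either.

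None of the sizes behind these counts passed adjustment in edgeR, whereas DESeq2 called Ccl1 with IL-7, Ccl5 with IL-33, Ccl4 and Ccl5 with CGRP, Ccl3, Ccl4 and Cxcl2 with NMU, and Ccl5 over all treatments. With IL-7, Ccl1 was lower in Pac1-/- by a log2 fold change of -1.27 ± 0.15 and Cxcl2 by -0.71 ± 0.22 (edgeR adjusted P = 0.726 for both). With IL-33, Ccl1 had -1.15 ± 0.38 and Ccl5 -2.24 ± 0.55 (edgeR adjusted P = 0.913 for both). With CGRP, Cxcl2 had 0.56 ± 0.15 and Ccl5 -2.63 ± 0.38 (edgeR adjusted P = 0.552 for both), and Ccl4 was seen in Pac1-/- libraries alone (edgeR adjusted P = 0.552). With NMU, Ccl1 had 1.17 ± 0.39, Cxcl2 1.31 ± 0.33, Ccl3 -2.94 ± 0.60 and Ccl4 -3.58 ± 0.88 (edgeR adjusted P = 0.903 for each). Cxcl3 with NMU had 0.83 ± 0.30 (edgeR adjusted P = 0.915) and Ccl5 -1.62 ± 0.66 (edgeR adjusted P = 0.977). With NMU, then, Ccl1, Cxcl2 and Cxcl3 had higher values in Pac1-/- and Ccl3, Ccl4 and Ccl5 lower ones. Over all treatments, Ccl5 had -1.58 ± 0.39 (edgeR adjusted P = 0.354), Xcl1 1.88 ± 0.83 and Cxcl3 0.40 ± 0.17 (edgeR adjusted P = 0.803 for both).

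The interaction of genotype and treatment, which asks whether the response differed between the genotypes, gave 0 called ligands by edgeR for IL-33, CGRP and NMU, where 0% of all genes were called in each. For IL-33, 2 of 5 ligands had an unadjusted P below 0.05 and DESeq2 called 1, against 5.65% and 0.493% of all genes. For CGRP the counts were 0 of 5 and 1, against 5.46% and 0.859%, and for NMU 2 of 7 and 1, against 6.37% and 0.294%. The DESeq2 calls were Ccl5 for IL-33, Ccl4 for CGRP and Ccl1 for NMU, so edgeR and DESeq2 differed. Where Ccl3, Ccl4 or Xcl1 was tested, it passed the filter only through groups in which it was high. Their edgeR SE was 1946 to 13757, so edgeR could not estimate their interactions, and these counts support nothing. For NMU against IL-33, Ccl1 had an interaction of 2.31 ± 0.53 and Cxcl2 of 1.07 ± 0.45 on the log2 scale (edgeR adjusted P = 0.764 for both). For IL-33 against IL-7, Ccl5 had -2.53 ± 0.55 and Cxcl2 0.94 ± 0.39 (edgeR adjusted P = 0.797 for both).

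The rest of the chemokine system was read from a list of 29 other ligands and 23 receptors. Of the other ligands, 6, 7, 5 and 6 were tested with IL-33 against IL-7, CGRP against IL-33, NMU against IL-33 and NMU against CGRP. edgeR called 0 of them, where at most 1.53% of all genes were called higher and at most 2.42% lower. At an unadjusted P below 0.05, 1 passed with IL-33 against IL-7 (10.5% of all genes) and 1 with CGRP against IL-33 (15.1%). With NMU, 2 passed against IL-33 (7.73%) and 1 against CGRP (19.4%). DESeq2 called 1, 1, 0 and 1 of them, where it called 3.26%, 8.23%, 1.34% and 13.2% of all genes. Cxcl16, in both counts with NMU, had at most 7 counts in an NMU library. It passed the filter on low counts only through the other treatment, so the counts with NMU support nothing. The most abundant of the other ligands was Cxcl1, a CXCR2 ligand like Cxcl2 and Cxcl3. It held 0 to 13.9 CPM with IL-33, 96.4 to 203 CPM with CGRP and 73.8 to 197 CPM with NMU, without overlap between IL-33 and either neuropeptide. Its log2 fold change was 5.38 ± 1.46 with CGRP (edgeR adjusted P = 0.131) and 4.99 ± 1.19 with NMU (edgeR adjusted P = 0.32). Cxcl10 and Ccl25 came next, at 0 to 76.7 CPM and 0 to 37.8 CPM over the 16 libraries.

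Among the receptors, 13 to 15 were tested in each treatment comparison. Ccrl2, an atypical receptor that binds chemerin and does not signal, was called higher with CGRP than with IL-33, by 1.88 ± 0.33 on the log2 scale (edgeR adjusted P = 0.0292). With NMU against CGRP, Cxcr6 was called higher by 1.67 ± 0.18 (edgeR adjusted P = 0.00264), Ccr2 lower by -1.14 ± 0.15 (edgeR adjusted P = 0.00661) and Cxcr4 lower by -3.99 ± 0.88 (edgeR adjusted P = 0.0446). edgeR called 0 receptors with IL-33 against IL-7, with 1 of 15 at an unadjusted P below 0.05 (10.5% of all genes) and 1 by DESeq2 (3.26%). It called 0 with NMU against IL-33, with 7 of 14 at an unadjusted P below 0.05 (7.73%) and 4 by DESeq2 (1.34%). With CGRP against IL-33, 6 of 13 had an unadjusted P below 0.05 (15.1%) and DESeq2 called 4 (8.23%), and with NMU against CGRP the counts were 7 of 14 (19.4%) and 7 (13.2%). Some receptors behind these counts passed the filter on low counts only through the treatment where they were high. Cxcr3 was at 0 counts in all libraries with CGRP or NMU. Ccr9 had at most 12 counts in a library with CGRP, and Ccr7 at most 2 with IL-7. The receptor counts therefore support nothing. The 3 most abundant receptors were Cxcr6 at 4639 CPM, Ccr8 at 1600 CPM and Ccr2 at 859 CPM on average. Cxcr2, the receptor of CXCL2 and CXCL3, had at most 7 counts in a library. In the 8 genotype and interaction comparisons, 4 to 9 other ligands and 10 to 16 receptors were tested. edgeR called 0 of either, where it called 0% to 0.0801% of all genes. At an unadjusted P below 0.05 there were 0 to 3 other ligands and 0 to 2 receptors, against 5.04% to 7.53% of all genes. DESeq2 called 0 other ligands and 1 receptor in 1 of the 8, against 0.294% to 1.86%. Some of these genes were at 0 in all libraries of a genotype and passed the filter only through the other genotype, so these counts support nothing.

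Across the 16 libraries, the genes whose log2 CPM was most like that of each ligand were listed by Pearson's r, as a description, since the libraries share treatments. Ccl1 and Cxcl2 were each other's nearest gene (r = 0.896), followed for Ccl1 by the cytokine gene Csf2 (0.882) and for Cxcl2 by Il2 (0.878), and the arginase gene Arg1 followed for both (0.859 and 0.877). Cxcl3 was nearest to the type 2 cytokine gene Il13 (0.957) and to the adhesion receptor gene Cd44 (0.934). Ccl5 was nearest to Cd3d (0.901), and Ccl3 to the inhibitory receptor gene Tigit (0.863). Ccl4 was nearest to Gm9800 (0.865).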

How the data were processed

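Full-length cDNA was amplified from about 500 sorted ILC2s per library and sequenced as pairs. The authors deposited raw counts per Ensembl gene, not normalized, on genome build mm10. The counting tool, annotation, strand use and duplicate handling are not given in the sources used here. Gene symbols, positions and exon lengths were taken from GENCODE M21 and promoters from RefSeq.

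Counts were scaled with TMM factors and tested with edgeR 4.0.16 (quasi-likelihood, filterByExpr) in R 4.3.3 on the libraries of each comparison; scripts were tested on simulated data. DESeq2 1.42.0, RLE size factors, other filters, a replicate block, 1 fit of all 16 libraries, each genotype alone and leaving out each library were tried as alternatives. Log2 CPM used a prior count of 2. The genes named are the 9 ligands, other chemokine ligands and receptors called in any comparison, the 3 most abundant of each, Dusp2, and, for ligands of mean CPM 10 or more, up to 3 genes of highest r among those with a mean of 20 CPM or more and a count in 14 or more libraries. Markers of other cells and Xcr1, Cxcr2, Cxcr3, Ccr7, Ccr9 and Cxcl16 were named after their values were seen. The members and lists were chosen with earlier results of these data known.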

Additional observations from a re-analysis of the deposited data

Results flagged for a closer look

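In 25 sets of 4 libraries of 1 treatment, taken over both genotypes, the highest or lowest library was compared with the others by Dixon's criterion, which flags about 1 set in 20 by chance. It was passed in 4 sets. In the 2 of them with 3 libraries at 0 any count in the other library passes, so that rate does not apply there. Ccl3 with IL-7 was at 0.349 CPM in 1 Pac1-/- library and 0 in the other 3. Ccl3 with CGRP was at 1.80 CPM in 1 Pac1-/- library, above the others. Ccl17 with IL-7 was at 1.33 CPM in 1 WT library and 0 in the other 3. Xcl1 with NMU was at 15.95 CPM in 1 Pac1-/- library, against 4.77 to 5.76 CPM in the other 3.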

How the results depend on the processing

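The number of the 9 ligands called depended on the fit. With IL-33 against IL-7 it was 0, and 2 with DESeq2, 2 without a filter, 1 with at least 10 counts in every library, 2 in 1 fit of all 16 libraries and 0 to 2 on leaving out a library; leaving out any library but the second Pac1-/- one with IL-33 added Ccl5, and all of these but the second Pac1-/- one with IL-7 added Xcl1. With CGRP against IL-33 it was 3, and 2 (without Ccl4) with DESeq2, in 1 fit and with at least 10 counts, and 0 in each genotype alone. With NMU against IL-33 it was 4, and 6 (with Ccl1 and Xcl1) with DESeq2, without a filter and in 1 fit, 2 with at least 10 counts, 0 in each genotype alone and 4 to 6 on leaving out a library; Xcl1 was added without either WT library with IL-33 or NMU or the second Pac1-/- one with NMU, and Ccl1 without the second WT one with IL-33 or NMU. With NMU against CGRP it was 1, and 4 with DESeq2, 3 without a filter, 2 with at least 10 counts, 4 in 1 fit, 0 in each genotype alone and 1 to 3 on leaving out a library; Ccl3 was added without the first WT or second Pac1-/- library with CGRP or either Pac1-/- library with NMU, and Ccl5 without the first Pac1-/- one with NMU. Between genotypes it was 0 with each treatment, and 1, 1, 2 and 3 with DESeq2 and 1, 0, 2 and 2 without a filter (IL-7, IL-33, CGRP, NMU), and over all treatments 1 with each. Leaving out a library gave 0 to 1 with IL-33 (Ccl5, without the first WT library), with NMU (Ccl4, without the first Pac1-/- library) and over all treatments (Ccl5, without the second WT library with IL-7). The interactions went from 0 to 1 each with DESeq2 and, for IL-33, to 1 without a filter. Whether the replicate numbers pair the libraries is not stated in the labels. Same-numbered libraries deviated together with r over 0.1 in 4 of 28 group pairs, at most 0.234, between WT and Pac1-/- with IL-33, so pairing stayed unknown. A replicate block left 2 of 3 calls with CGRP, losing Ccl4, and 4 and 1 with NMU. Over all genes, DESeq2 called 423, 1083, 169 and 1691 in the 4 treatment comparisons where edgeR called 6, 230, 13 and 495. Without a filter edgeR called 201, 639, 77 and 1102 of 26738, 27719, 25726 and 26540 genes. With at least 10 counts it called 10, 465, 27 and 859 of 7299, 6582, 7433 and 6345. In 1 fit it called 5, 413, 28 and 820 of 14979. In WT alone it called 0, 0, 2 and 0 genes, and in Pac1-/- alone 0, 0, 3 and 1. Between genotypes without a filter it called 28, 18, 82 and 32 of 21451, 22105, 22944 and 19870. The ligand counts changed beside these totals. Directions of uncalled log2 fold changes turned in WT alone for Cxcl2 with IL-33 against IL-7 (-0.26) and with NMU against CGRP (-0.00108) and for Ccl1 with NMU against CGRP (-0.25), without the first Pac1-/- library with IL-33 for Ccl1 with IL-33 against IL-7 (-0.020, in a range of -0.020 to 0.23 on leaving out a library), and for Ccl4 with NMU against CGRP in Pac1-/- alone (-4.36) and without the first or second WT library with CGRP (-2.68 each, in a range of -2.68 to 6.81). The cause was not tested. Of 666 alternative fold changes, 574 kept their direction and side of the threshold. Values uncalled in both fits count among the 574. Genotype and interaction comparisons entered only at an unadjusted P below 0.05, and fits that filtered a gene out were left out. The tally therefore does not measure how firm the calls are. Ccl3, Ccl4, Ccl17, Ccl22 and Xcl1 had libraries at 0, where levels under the floor of 3 counts would not be seen.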
